A study of Sus scrofa with 12 samples.

Results

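Genes for RNA processing and translation were examined in N6-methyladenosine (m6A) peak lists of pig muscle. Members were all genes of the lists whose symbol begins with RBM, SRSF, HNRNP, SF3, DDX, DHX, SNRP, LSM, PRPF, CPSF, CSTF, PABP, EIF, EEF, or RPL or RPS followed by a digit, together with PNISR. The RPS6K kinases were left out. The rule used names and no measured value, and it found 57 genes of the 2159 genes with a peak, which carried 361 of the 13487 peaks. The samples were longissimus dorsi, the long muscle of the back, of Large White and Ningxiang pigs aged 5 days, with 3 replicates per breed. The labels name no other treatment or genotype and do not say whether each replicate is a separate pig, so the tests below reflect the spread between the 3 lists of a breed, and this spread may be technical. Fragmented mRNA was enriched with an m6A antibody and compared with input mRNA, and 1 peak list was deposited for each replicate.

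m6A is a methyl mark on adenosines of mRNA, placed mainly as the transcript is made. It is read by proteins that act on splicing, export, translation and decay, and in mammalian mRNAs it is known to be dense near stop codons and in long internal exons. The proteins encoded by the members take part in the same life of the mRNA: hnRNP, SR and RBM proteins bind the nascent transcript, the spliceosome removes introns, cleavage and polyadenylation factors form the 3′ end, and initiation factors and ribosomes translate the product. The peaks described here lie on the mRNAs of these genes, and say nothing of the proteins.

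The Large White lists held 2373, 2214 and 2533 peaks and the Ningxiang lists 2034, 2111 and 2222. Peaks were listed for 8 of the 12 skeletal muscle markers examined, 7 of them in all 6 lists; CKM, DES and MYOG were among the 8. A curated transcript was in the RefSeq table for 9 of these 12. Markers of other cells had peaks too, counted over those with a curated transcript: 3 of 4 for adipocytes, 3 of 3 for endothelial cells, 3 of 3 for fibroblasts, 1 of 2 for leukocytes, 1 of 1 for Schwann cells and 0 of 1 for erythroid cells. So few leukocyte, Schwann and erythroid markers say little of these cells. In a bulk sample, fewer cells of a type and less RNA per cell cannot be told apart. Sequencing depth is unknown from these lists. A gene with no listed peak was below the authors' threshold, which does not show that its mRNA lacked m6A.

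Member mRNAs were about as often listed as other mRNAs, and this varied widely with their role. Every listed peak was annotated to a curated RefSeq transcript. Among genes with such a transcript in the RefSeq table used here, 57 of 112 members had a peak (50.9%), against 2129 of 3986 genes in all (53.4%). All 4 genes of the 3′ end and poly(A) group were listed, with 7 of 8 RBM genes, 11 of 15 spliceosome genes, and 6 of 9 genes each for SR proteins and helicases. The hnRNP group had 4 of 6 and the initiation factors 7 of 16. Ribosomal proteins had 12 of 42, and none of the 3 elongation factor genes, EEF1A1, EEF1B2 and EEF1E1, was listed.

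Most members were found in several lists. A peak was present in all 6 lists for 24 members (42.1%), beside 35.7% of all genes with a peak. Peaks were in 5 lists for 9 members, in 4 for 7, in 3 for 6, in 2 for 3, and in 1 list for 8. Those found once were RPL10A, RPL7, EIF2AK2 and LSM14A in Large White replicate 3, RPL14 in Large White replicate 1, RPL26L1 in Large White replicate 2, and RPL35 and SRSF12 in Ningxiang replicate 3. Ribosomal protein genes made up 5 of these 8.

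**Figure D1:**
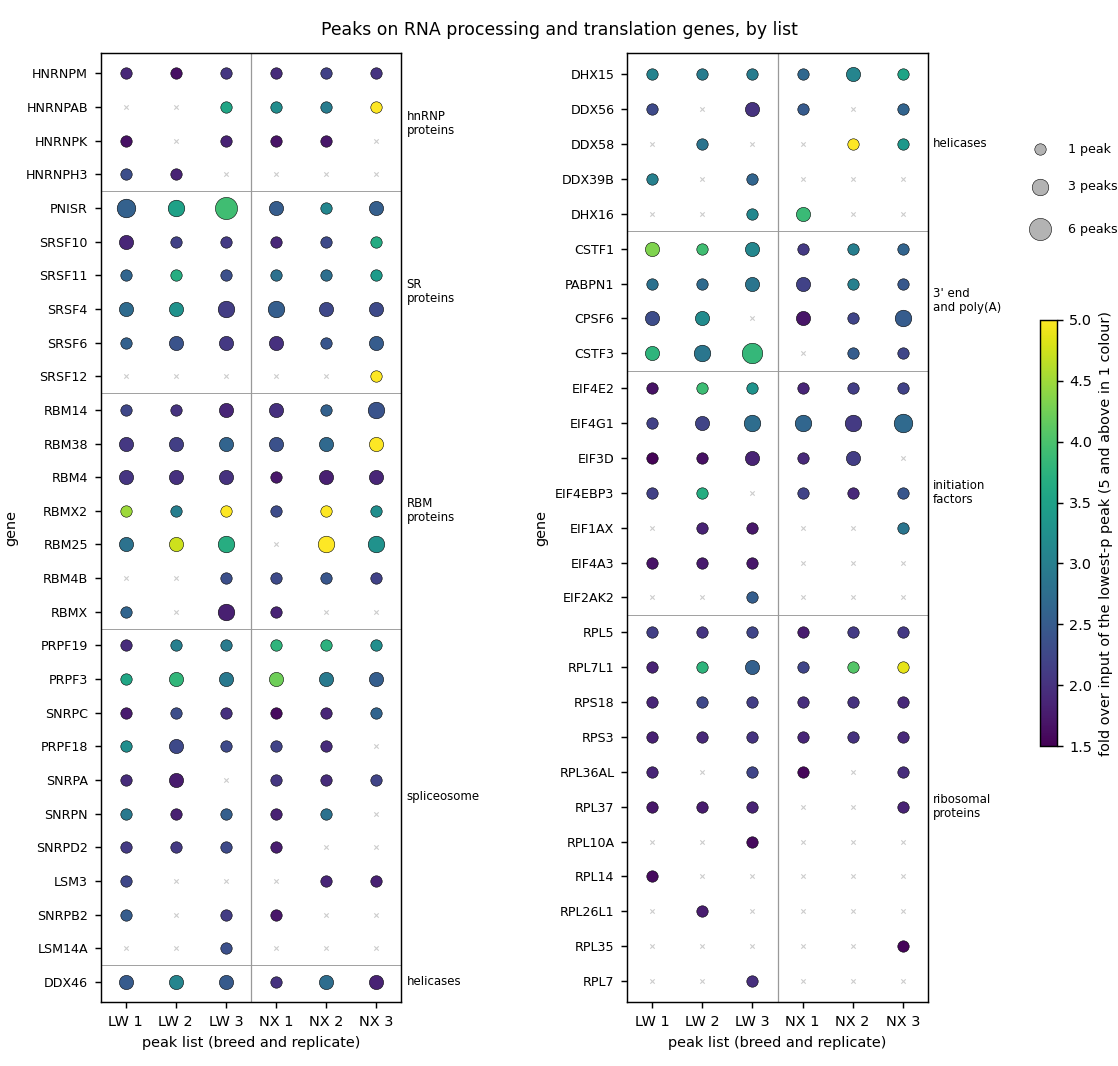
Each line is one of the member genes reported by name, sorted by role group, and each column a peak list (LW, Large White; NX, Ningxiang; replicate number). Circles mark listed genes, with size for the number of peaks and colour for the fold over input of the peak with the lowest p-value; crosses mark no listed peak. Of the 55 genes drawn, 23 have a circle in all 6 columns, and EIF4A3 is the gene with circles in every Large White column and none in Ningxiang.

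Member peaks numbered 61, 58 and 79 in the Large White lists and 53, 51 and 59 in the Ningxiang lists. Means were 66.0 ± 11.4 and 54.3 ± 4.16 peaks (SD, n = 3 each), a difference of 11.7 (exact two-sided permutation test, p = 0.2, adjusted p = 0.3 over 3 comparisons). Member genes numbered 45, 40 and 47 against 39, 38 and 40, with means of 44 ± 3.61 and 39 ± 1 (SD, n = 3 each; exact permutation p = 0.2, adjusted p = 0.3). The 2 breeds overlapped in both counts, and Large White replicate 3 was the highest list in each.

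Set against the length of each list, the breeds were closer. Members took 2.57, 2.62 and 3.12% of the peaks in Large White and 2.61, 2.42 and 2.66% in Ningxiang, with means of 2.77 ± 0.303 and 2.56 ± 0.126% (SD, n = 3 each; exact permutation p = 0.5, adjusted p = 0.5). Without Large White replicate 3 the difference in member peaks dropped from 11.7 to 5.17 and that in share from 0.211 to 0.0362 percentage points. With 3 lists against 3 the smallest two-sided p is 0.1, so neither comparison could pass 0.05.

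The hnRNP genes encode abundant nuclear proteins that package nascent transcripts and influence splice site choice. HNRNPM, a regulator of alternative splicing, was the 1 hnRNP gene in all 6 lists. Its lowest-p peak had a fold over input, the authors' ratio of enriched to input signal, of 1.89, 1.64 and 2.06 in Large White and 1.93, 2.17 and 2.03 in Ningxiang. The folds of the breeds overlapped, and the 149 bases that all 6 lists shared lay in 2 stretches, at chromosome 2, 70846835 to 70846887 and 70858659 to 70858754, the second of them at the 5′ end of the gene. HNRNPK, a poly(C)-binding protein, was listed in 4 lists with folds of 1.66 and 1.84 in Large White replicates 1 and 3 and 1.68 and 1.73 in Ningxiang replicates 1 and 2. HNRNPA1 and HNRNPC had no peak.

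HNRNPH3 and HNRNPAB had opposite patterns of listing. HNRNPH3, which encodes a protein of the G-run-binding H/F family, was listed with folds of 2.33 and 1.83 in Large White replicates 1 and 2 and in no Ningxiang list. HNRNPAB was listed with a fold of 3.56 in Large White replicate 3 and of 3.2, 2.95 and 5.5 in the Ningxiang lists. Its peak lay at nearly the same place each time, near the 5′ end of the gene (chromosome 2, from 80193655 to 80193926 in 3 of the 4 lists). Members listed in 2 more Large White than Ningxiang lists numbered 4 (7.02%, beside 6.9% of all genes with a peak), and members listed in 2 more Ningxiang lists numbered 2 (3.51%, beside 4.49%). Both shares were near those of all genes.

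SR proteins bind exonic enhancers through their RNA recognition motifs and recruit the spliceosome; PNISR is a nuclear serine- and arginine-rich protein. SRSF4, SRSF6, SRSF10, SRSF11 and PNISR were listed in all 6 lists. SRSF11 had folds of 2.63, 3.68 and 2.35 in Large White and 2.79, 2.77 and 3.41 in Ningxiang, and SRSF4 had 2.71, 3.28 and 2.12 against 2.53, 2.26 and 2.29. The breeds overlapped for both genes. SRSF6 ran from 1.99 to 2.57 and SRSF10 from 1.88 to 3.64 over the 6 lists.

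Of 56 peaks of the SR genes, 35.7% lay in the last 10% of the gene, against 18.8% of all member peaks. This was near the 36.0% for peaks of other genes. The helicases had 32.3% and the RBM genes 24.6% there. PNISR alone gave 9 of the SR peaks at this end. In SRSF6 the 179 bases shared by all 6 lists were 1 stretch in its last exon (chromosome 17, 46122214 to 46122392, 91.9% of the way along the gene). SRSF4 shared 392 bases and SRSF11 331 bases over all 6 lists, and SRSF10 shared 120. SRSF1, SRSF2 and SRSF9 had no peak. SRSF12 was listed once, in Ningxiang replicate 3, with the highest fold of any member, 10.7, at a log10 p of only -4.49.

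PNISR, with 12 exons, carried 18 peaks, which were 4, 3 and 6 by list in Large White and 2, 1 and 2 in Ningxiang. Its lowest-p peak had folds of 2.58, 3.5 and 3.93 in Large White and 2.52, 3.1 and 2.54 in Ningxiang, which overlapped. That peak lay in the middle of the gene, where all 6 lists shared 329 bases in 3 stretches (chromosome 1, 66365825 to 66369968). A second site lay in the last exon, at chromosome 1, 66351925 to 66352611, a region of 687 bases. Every Large White list had a peak there, covering 270, 269 and 539 bases, and no Ningxiang list had one. Only 31 of those bases, 66352253 to 66352283, were common to all 3 Large White lists. A neighbouring region of the same exon, 66351566 to 66351835, was listed in both breeds: it was in all 3 Large White lists (270, 180 and 210 bases) and in Ningxiang replicates 1 and 3 (180 and 151 bases, folds of 2.21 and 2.6).

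RBM proteins are a mixed family that carry RNA recognition motifs. RBM38, an RNA-binding protein known to promote myogenic differentiation, had 2 peaks in every list. One began in its first exon and the other in the 3′ untranslated region, at 92.3% of the gene length. Its lowest-p peak had folds of 2.07, 2.15 and 2.61 in Large White and 2.37, 2.68 and 6.09 in Ningxiang. The values of 2.61 in Large White replicate 3 and 6.09 in Ningxiang replicate 3 belonged to the 3′ peak, and the others to the first-exon peak. By site, the 3′ peak had 1.8, 2.37 and 2.61 in Large White and 2.7, 2.58 and 6.09 in Ningxiang. The first-exon peak had 2.07, 2.15 and 2.03 against 2.37, 2.68 and 1.94, and the breeds overlapped at both sites. The 3′ peak of Ningxiang replicate 3 had a log10 p of -131, the lowest of any member outside the ribosomal proteins. Both sites recurred: all 6 lists shared 154 bases at chromosome 17, 57783424 to 57783577, 26 bases at 57784356 to 57784381, and 150 bases at 57796771 to 57796920.

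RBM25, a spliceosome-associated factor that influences 5′ splice site choice, was in 5 lists. Its lowest-p peak had folds of 2.82, 4.74 and 3.68 in Large White and 8.29 and 3.29 in Ningxiang replicates 2 and 3. These came from different sites. The Large White values belonged to a peak from exon 6 of 13 on, and the Ningxiang values to one that began in the 5′ untranslated region. At the 5′ site, Large White replicates 2 and 3 had 7.47 and 5.48. At the other site, overlapping peaks of Ningxiang replicates 2 and 3 had 2.29 and 3.02. RBMX2 had folds of 4.49, 2.98 and 8.14 in Large White and 2.3, 9.61 and 3.21 in Ningxiang, with log10 p from -2.78 to -10, and no base was covered in all 6 lists. Large folds with weak p-values were thus found in the same gene. RBMX, an X-linked splicing regulator, was listed in Large White replicates 1 and 3 and in Ningxiang replicate 1, with folds of 2.63, 1.81 and 1.85. RBM3 had no peak.

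RBM4, RBM4B and RBM14 are neighbours on chromosome 2, within 5746274 to 5800758, and RBM4 and RBM4B are close paralogs, so that reads may be shared between these 2. RBM4, a splicing and translation regulator, had folds of 2.04, 1.99 and 2 in Large White and 1.73, 1.81 and 1.87 in Ningxiang. All 3 Large White values were above all 3 Ningxiang values for RBM4, but no base was covered in all 6 lists. The Ningxiang replicate 1 value belonged to a peak at the 5′ end, and the Large White values to peaks in exon 2. At the 5′ end, Large White replicates 2 and 3 had 1.96 and 1.89, and Ningxiang replicates 2 and 3 had 1.61 and 1.65. The difference was not tested because folds of separately called lists are not levels of methylation. RBM14, a coactivator and paraspeckle protein, had 2.24, 2.01 and 1.87 against 1.98, 2.58 and 2.4. RBM4B was listed in Large White replicate 3 at a fold of 2.34 and in the Ningxiang lists at 2.29, 2.44 and 2.19. The RBM4B peaks of Ningxiang replicates 1 and 2 lay at the 5′ end and the other two in the last exon, so that the lists did not share 1 site.

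Spliceosome genes carried 74 peaks, all of which crossed a splice junction. PRPF3, a protein of the U4/U6 snRNP, had folds of 3.57, 3.8 and 2.92 in Large White against 4.23, 2.93 and 2.53 in Ningxiang. The breeds overlapped, and 482 bases were covered in all 6 lists, the most of any member.

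PRPF19, a ubiquitin ligase of the spliceosome-activating complex, had a peak that began near the 5′ end of the gene in every list, with folds of 1.94, 3 and 2.94 in Large White and 3.77, 3.73 and 3.21 in Ningxiang. All 3 Ningxiang folds were above the 3 Large White folds, a description with no test. Of the 24 members in all 6 lists, RBM4 and CSTF1 were the only others whose folds were separated by breed. SNRPC, a U1 snRNP protein that contacts the 5′ splice site, had 1.77, 2.33 and 1.98 against 1.6, 1.87 and 2.62, and shared 61 bases over the 6 lists, the fewest of the genes that shared any. SNRPA, the U1 snRNP protein that binds a stem-loop of U1 RNA, ran from 1.77 to 2.21 in 5 lists and was missing from Large White replicate 3.

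PRPF18, a second-step splicing factor, was in 5 lists with folds of 3.22, 2.27 and 2.29 in Large White and 2.21 and 1.93 in Ningxiang replicates 1 and 2. It held 2 exonic regions listed in every Large White and no Ningxiang list, at chromosome 10, 48109942 to 48110019 and 48122030 to 48122150. The p-values behind them were weak, with a log10 p of -5.75 for the lowest PRPF18 peak. SNRPN, the tissue-specific relative of the Sm protein SNRPB, was in 5 lists with folds of 1.81 to 2.92; it lies on an unplaced scaffold, where 1 region (142418 to 142526) was listed in every Large White list and no Ningxiang list. Neither gene met this rule where 50% of a region had to be covered.

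The Sm and LSM proteins form the rings on which spliceosomal snRNPs are built. SNRPD2, an Sm ring protein, had folds of 2.11, 2.1 and 2.29 in Large White and 1.78 in Ningxiang replicate 1, all from the same place (chromosome 6, 52040878 to 52042474 in Large White). SNRPB2 was listed in 3 lists with folds of 2.52, 2.12 and 1.73, LSM3 in 3 with 2.25, 1.87 and 1.82, and LSM14A in 1 with 2.36. LSM14A acts in cytoplasmic mRNA storage granules, not in splicing. SNRPD3, SNRPE, SNRPF and LSM2 had no peak.

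The DEAD- and DEAH-box helicases remodel RNA and RNA-protein complexes using ATP. DHX15, the helicase that disassembles spliceosomes after splicing, had folds of 3.06, 2.95 and 2.96 in Large White and 2.67, 3.09 and 3.55 in Ningxiang. The same peak was found in every list, across the junction of exons 1 and 2 (chromosome 8, 18613754 to 18620654 in Large White replicates 1 and 3), and 239 bases of it were shared by all 6. DDX46, a helicase of the U2 snRNP, had 2.49, 3.09 and 2.48 against 2.01, 2.74 and 1.84, with 240 shared bases.

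The other helicases were in 2 to 4 lists. DDX39B, a helicase of spliceosome assembly and mRNA export, had 1 peak of 121 bases, at identical coordinates (chromosome 7, 23658312 to 23659249), in Large White replicates 1 and 3, with folds of 3.01 and 2.63. The peak crossed a splice junction near the 3′ end of the gene, with blocks of 104 and 17 bases. It was missing from Large White replicate 2 and from all Ningxiang lists. DDX56 was listed in 4 lists with folds from 2.01 to 2.61, and DHX16 in 2 with 3.13 and 3.87. DDX58 encodes RIG-I, a sensor of foreign RNA and not a splicing factor, and was listed in 3 lists with 2.84, 8.29 and 3.37. DDX3X, DDX4 and DHX58 had no peak.

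In the 3′ end and poly(A) group, PABPN1, the nuclear poly(A)-binding protein whose repeat expansion underlies oculopharyngeal muscular dystrophy, was listed in every list. Its folds were 2.8, 2.71 and 2.86 in Large White and 2.19, 3.01 and 2.45 in Ningxiang, with log10 p from -82.1 to -39.3, and all 6 lists shared 205 bases. CPSF6, a cleavage factor Im subunit, was in 5 lists, with folds of 2.32 and 3.17 in Large White replicates 1 and 2 and 1.7, 2.22 and 2.51 in Ningxiang. Both genes overlapped between breeds.

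CSTF1 and CSTF3 encode subunits of the cleavage stimulation factor, which binds downstream of the cleavage site. CSTF1 had folds of 4.32, 3.93 and 3.12 in Large White and 2.1, 2.98 and 2.62 in Ningxiang. All Large White values were the higher ones, but they mixed 2 sites and no base was covered in all 6 lists. At the site nearer the 3′ end, Large White replicates 1 and 3 had 3.05 and 3.12, and Ningxiang replicates 2 and 3 had 2.98 and 2.62. At the other, the Large White lists had 4.32, 3.93 and 2.74, and Ningxiang replicate 1 had 2.1. CSTF3 had 3.77, 2.87 and 3.83 in Large White, none in Ningxiang replicate 1, and 2.52 and 2.23 in Ningxiang replicates 2 and 3. Its 12 peaks were spread over 22 exons. These comparisons of fold carry no test, and log10 p reached only -13 for CSTF3 and -12.9 for CSTF1.

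By exonic region rather than by gene, 7 member regions were listed in every Large White and no Ningxiang list, of 284 member regions (2.46%, beside 1.78% of all 9340 exonic regions). They lay in 5 genes: CSTF3 and PRPF18 with 2 each, and CSTF1, PNISR and SNRPN with 1 each. For CSTF3 these were 27837531 to 27837613 and 27837867 to 27837941 on chromosome 2, neighbouring exons crossed by 1 peak in each Large White list, and for CSTF1 56978025 to 56978191 on chromosome 17. The mirror pattern was found for 3 regions (1.06%, beside 0.685% of all regions), all of them in EIF4G1. There, 1 peak in each Ningxiang list crossed all 3. The 2 PRPF18 regions were likewise crossed by 1 peak in each Large White list. Blocks of the same peak thus count as separate regions in these shares. At these counts both shares were near those of all regions. The genes depended on the setting. Where a list had to cover at least 50% of a region, there were 6 Large White-only regions, in CSTF1, CSTF3, DDX46, RBM25 and SNRPD2, so that PNISR, PRPF18 and SNRPN lost the call, and there were 2 Ningxiang-only regions, both in EIF4G1. With lists of equal length there were 5 Large White-only regions and PRPF18 had none. With the stronger 50% of each list, 0 regions met either rule. Leaving out 1 list, which eases the rule, gave 11 to 15 Large White-only regions except without Ningxiang replicate 2, where there were 9, and gave 8, 5 and 7 Ningxiang-only regions without Large White replicate 3, Ningxiang replicate 2 and Ningxiang replicate 3.

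Initiation factors bring the ribosome to the mRNA. EIF4G1, the scaffold of the cap-binding complex eIF4F, had folds of 2.17, 2.21 and 2.74 in Large White and 2.64, 2.09 and 2.7 in Ningxiang. Its lowest-p peak began in exon 8 of 32 in every list, and all 6 lists shared 1 stretch of 270 bases there (chromosome 13, 122209856 to 122210125). A second peak was listed in the 3 Ningxiang lists alone, over the first exons at 122204787 to 122206373. It had folds of 1.77, 2.32 and 1.9 and log10 p of -7.66, -10.1 and -13, and it filled an exonic region of 87 bases (122205143 to 122205229) in all 3. Large White lists had no peak within the first 10% of EIF4G1.

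**Figure D2:**
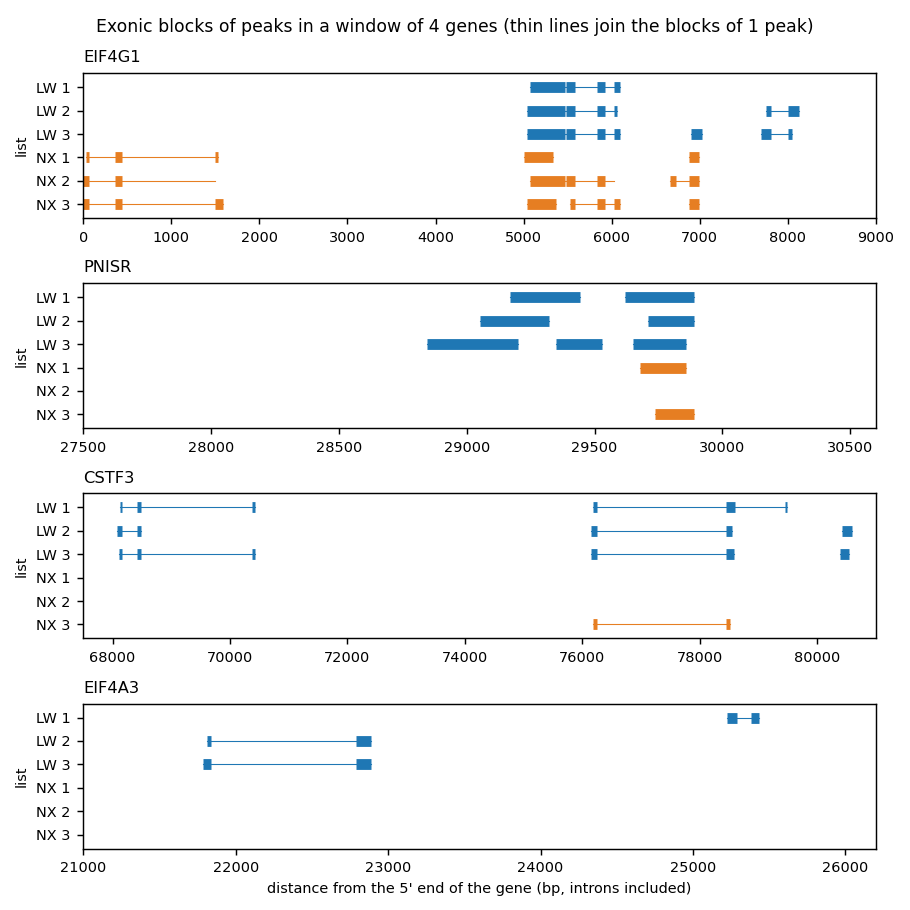
Exonic blocks of the peaks of EIF4G1, PNISR, CSTF3 and EIF4A3 in a window of each gene, by list (LW, Large White, blue; NX, Ningxiang, orange), against the distance from the gene's 5′ end in bp with introns included. Thick bars are exonic blocks and thin lines join blocks of the same peak. Blocks near the start of EIF4G1 are present in the 3 Ningxiang lists alone; EIF4A3 blocks are present in the 3 Large White lists alone, at 2 separate places.

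EIF4A3, the RNA-anchoring helicase of the exon junction complex, was the 1 member listed in every Large White list and no Ningxiang list (1.75% of members, beside 1.34% of all genes with a peak). No member met the reverse rule (0% of members, beside 0.741% of all genes). The EIF4A3 peaks were weak, with folds of 1.68, 1.75 and 1.73 near the lowest fold of any listed peak, 1.53, and log10 p of -7.87, -5.42 and -9.19. They did not all lie at the same site: replicates 2 and 3 shared a site from exon 8 of 12 on (chromosome 12, 2307494 to 2308567), and replicate 1 had its peak further on, from exon 10 (2310901 to 2311112). When each list was limited to the stronger 50% of its peaks, EIF4A3 was no longer in every Large White list. Leaving out 1 list eases the rule, and 1 more gene then met it for 4 of the 6 lists: DDX39B without Large White replicate 2, HNRNPH3 without Large White replicate 3, SNRPD2 without Ningxiang replicate 1 and RPL37 without Ningxiang replicate 3, for a count of 2. Without Large White replicate 3, HNRNPAB and RBM4B met the reverse rule. A single gene cannot reach an exact two-sided p under 0.1 with 3 lists against 3.

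EIF4E2, a cap-binding protein that represses translation, was listed in all 6 lists, with peaks that began in the 5′ untranslated region or in exon 2, and folds of 1.67, 3.9 and 3.3 in Large White and 1.87, 2.14 and 2.19 in Ningxiang. The breeds overlapped, since Large White replicate 1 was the lowest of all. EIF3D, a cap-contacting subunit of eIF3, was in 5 lists with folds from 1.54 to 2.13. EIF1AX, a factor of start codon scanning, was in 3 lists at 3 different places of its gene, with folds of 1.84 and 1.73 in Large White replicates 2 and 3 and 2.86 in Ningxiang replicate 3.

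Some genes carrying the EIF prefix restrain translation. EIF4EBP3, an inhibitor of the cap-binding protein eIF4E, was in 5 lists, with folds of 2.17 and 3.67 in Large White replicates 1 and 2 and 2.21, 1.9 and 2.43 in Ningxiang. EIF2AK2, the kinase PKR, which shuts off initiation when it binds double-stranded RNA, was listed once with 2.53. EIF4EBP1, a target of growth signalling through mTOR, had no peak, nor had EIF1AY, EIF1B, EIF3I, EIF3L, EIF4A1, EIF4A2, EIF4H and EIF6. Of 14 genes matching the name rule with a known link to muscle, RBM38 and PABPN1 were listed and EIF4EBP1 and SRSF1 were not. The other 10, RBM20 and RBM24 among them, were not listed either, but have no curated transcript in the RefSeq table.

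The ribosomal proteins build both subunits of the ribosome and are among the most highly expressed genes of most tissues. Their peaks had the lowest p-values and low folds. Of 44 ribosomal peaks, 31 had a log10 p below -100, in 8 genes, against 1 of the other 317 member peaks. RPS3, a protein of the small subunit at the mRNA entry channel, had folds of 1.82, 1.91 and 2.02 in Large White and 1.88, 2 and 1.91 in Ningxiang. Its log10 p was -326, -311 and -459 in Large White and -567, -562 and -510 in Ningxiang. All Ningxiang p-values were the lower ones while the folds overlapped, and since a p-value also depends on read number, which is not known here, no difference is read from this. The 6 lists shared 174 bases of RPS3, at chromosome 9 between 9629241 and 9629869.

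RPL5, a protein of the 5S ribonucleoprotein, had folds of 2.15, 2.04 and 2.22 in Large White and 1.76, 2.11 and 2.08 in Ningxiang, with 207 shared bases. RPS18 had 1.88, 2.26 and 2.14 against 1.96, 2 and 1.91, with 145 shared bases. The breeds overlapped for both genes. RPL37 was in 4 lists, at 1.73, 1.77 and 1.83 in Large White and 1.83 in Ningxiang replicate 3, each time over the same 176 bases. RPL10A, RPL14, RPL35 and RPL7 were listed once, with folds of 1.59, 1.6, 1.55 and 1.97. The other 30 ribosomal protein genes with a curated transcript had none.

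RPL7L1, RPL36AL and RPL26L1, relatives of core ribosomal proteins, had weaker p-values. RPL7L1, a nucleolar ribosome biogenesis factor related to RPL7, was in all 6 lists with folds of 1.84, 3.78 and 2.56 in Large White and 2.22, 4.07 and 4.87 in Ningxiang, and its recurring peak lay in the 3′ untranslated region. RPL36AL was listed in 4 lists with folds of 1.86, 2.22, 1.56 and 1.94, and RPL26L1 in 1 with 1.78. The remaining 9 ribosomal genes had 32 peaks, with folds confined to 1.55 to 2.26 and log10 p between -567 and -84.2. Ribosomal protein genes have many near-identical processed copies in mammalian genomes, and how reads of such copies were assigned is not given in the sources used here, so these values are uncertain.

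**Figure D3:**
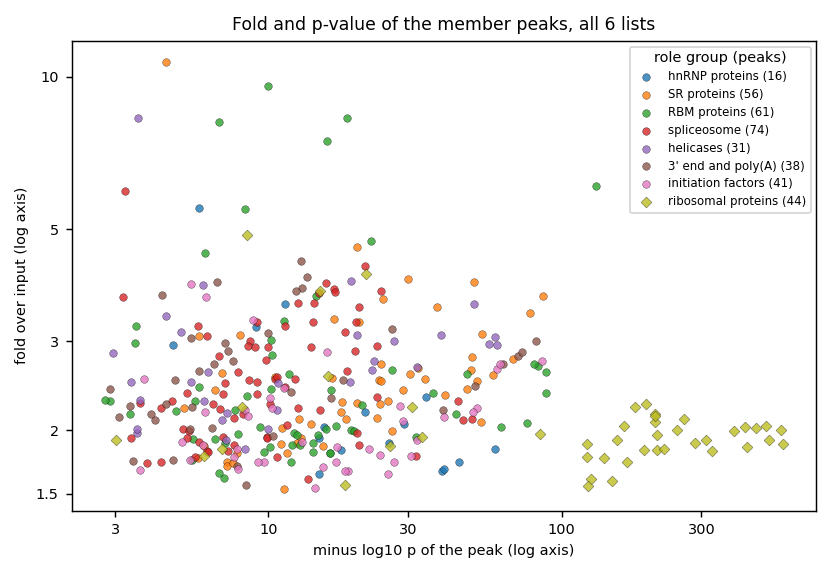
Each point is 1 of the 361 member peaks of the 6 lists, with minus log10 p on the horizontal axis and the fold over input on the vertical axis, both on log scales, coloured by role group (diamonds, ribosomal proteins). Ribosomal peaks fill the right side at folds near 2, with 31 of 44 beyond 100 on the horizontal axis, and 1 other point, RBM38 in Ningxiang replicate 3, lies there.

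Member peaks were placed differently along their genes from the peaks of other genes. Over all lists, 18.8% of member peaks were centred in the final 10% of the gene, counted with introns, against 36.0% of other peaks. By list the member share ran from 13.8 to 26.2% and the other share from 35.1 to 36.9%, with no overlap. The median midpoint lay at 55.3% of the gene for member peaks and 79.2% for others. A midpoint is that of a peak's whole span, so for a peak across a splice junction it can fall in an intron. Position is therefore not independent of the junction shares given below. Among plus-strand genes, for which the untranslated-region class can be read, 8.0 to 19.4% of member peaks per list were in 3′ untranslated regions, against 27.6 to 30.9% of other peaks.

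Member peaks also crossed splice junctions more often. This was so for 80.1% of member peaks and 55.9% of other peaks, with per-list ranges of 71.7 to 88.2% and 53.4 to 58.6% that did not overlap. The covered exonic length was alike, with medians of 209 and 210 bases. Without the ribosomal proteins, 317 member peaks gave 80.8% across junctions and 18.3% in the last 10%. Taking 1 peak per gene, the one with the lowest p-value, 45 of 57 members (78.9%) had a junction-crossing peak against 60.8% of other genes, and 11 of 57 (19.3%) had it in the last 10% against 36.4%. Members had a median of 7 exons and 11.1 kb, against 9 exons and 19.7 kb for other genes; the part of gene structure in these differences was not tested. All of these values are descriptions over peaks that share lists and genes, with no test.

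Member folds were lower. The median fold of member peaks was 2.22 against 2.54 for other peaks, and 32.4% of member peaks were under a fold of 2, against 21.3% of others. By list the medians ran from 2.05 to 2.43 for members and from 2.43 to 2.62 for others, so that they touched. Without the ribosomal proteins the member median was 2.3. The median log10 p was lower for members, at -13.5 against -9.98.

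**Figure D4:**
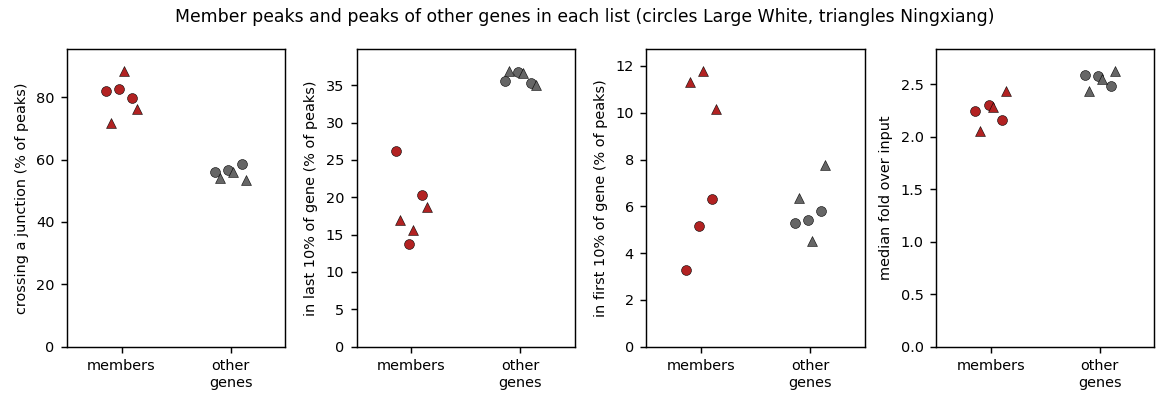
For each list (circles, Large White; triangles, Ningxiang), the panels give the percent of peaks crossing a splice junction, in the last 10% and in the first 10% of the gene, and the median fold over input, for member genes and all other genes. Member values lie above the others for junctions (71.7 to 88.2% against 53.4 to 58.6%) and below them for the last 10% (13.8 to 26.2% against 35.1 to 36.9%).

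Member peaks with their midpoint in the first 10% of the gene were listed more in Ningxiang. Peaks in the first 10% numbered 2, 3 and 5 in the Large White lists and 6, 6 and 6 in the Ningxiang lists, or 3.28 to 6.33% of member peaks against 10.2 to 11.8%, with no overlap. Other genes had 5.28 to 5.79% in Large White lists and 4.51 to 7.77% in Ningxiang lists, which overlapped. The difference rests on few genes: EIF4G1 had 3 such peaks in Ningxiang and none in Large White, HNRNPAB had 3 against 1, RBM4B 2 against 0, RBM4 3 against 2 and EIF1AX 1 against 0. DHX15 and RBM38 had 3 in each breed, and DDX46 had 1 in Large White. The count leaves out peaks that cover the start of a gene but run on across junctions. Such peaks gave the 5′ end regions of PRPF18 (48122030 to 48122150) and SNRPN (142418 to 142526), listed in every Large White and no Ningxiang list. Their midpoints lay at 10.9 to 26.7% and 29.9 to 42.0% of the gene. The contrast is thus one of midpoints, and does not show that first exons were covered more in Ningxiang. In 3′ untranslated regions of plus-strand members Large White had more, with 5, 6 and 6 peaks (15 to 19.4%) against 2, 3 and 3 in Ningxiang (8.0 to 10.3%). The shares of other genes overlapped (28.5 to 30.9% and 27.6 to 29.3%). Part of the 3′ contrast lay in the class given to peaks at shared sites. The DDX46 peak from exon 20 on was classed as 3′ untranslated in every Large White list and as exon in every Ningxiang list. All 6 lists shared 240 bases of it. RPS18 was classed as 3′ untranslated in Large White replicate 2 and as exon in the other lists, with 145 shared bases. The contrasts at both ends of the gene were picked out after their values were seen and carry no test.

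**Figure D5:**
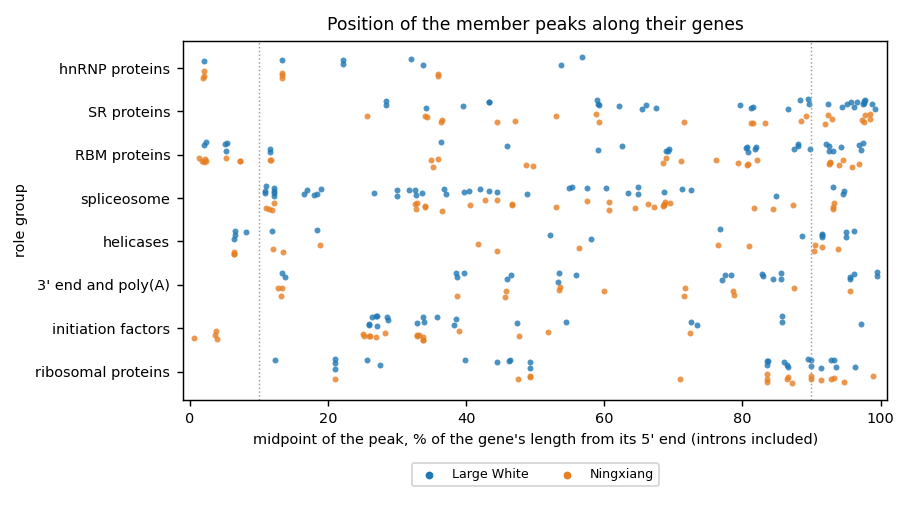
Midpoints of all member peaks as a percent of the gene's length from its 5′ end, introns included, by role group (blue, Large White; orange, Ningxiang; vertical scatter within a group has no meaning). Dotted lines mark the first and last 10% of the gene. Past the right line lie 35.7% of SR peaks and 32.3% of helicase peaks, and 8.11% of spliceosome peaks, which spread through the middle.

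The same gene in 2 lists did not always mean the same site. Of the 24 members in all 6 lists, 20 had bases covered in every list, a total of 4634 bases in 56 stretches, with 61 to 482 bases per gene and a median of 206. The other 4, CSTF1, RBM14, RBM4 and RBMX2, had none. Common stretches lay in the first 10% of the gene for 5 genes and in the last 10% for 8. In DHX15, PRPF19 and SNRPC the stretch in the first 10% was only 2, 5 and 5 bases long. The longest stretch of these genes was centred at 12.2, 20.7 and 37.5% of the gene. As exonic regions, 56 of 284 member regions were listed in all 6 lists (19.7%, beside 15.1% of all exonic regions), and 34 with the stronger 50% of each list.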

How the data were processed

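Methylated RNA was immunoprecipitated and sequenced (MeRIP-seq) in 12 samples, an enriched and an input sample for each of 3 replicates per breed. The authors deposited 1 peak list per replicate, so peaks were not called on pooled samples. Per the file headers, each peak carries a fold, the linear ratio of enriched over input signal, and a p-value. The deposited log10 p, the score used here to rank peaks within a list, belongs to the same peak. Coordinates are on susScr11, and HOMER, ChIPseeker 1.30.2 and FastQC 0.11.9 were run, per the submitters' processing notes. Neither the aligner nor the peak caller is given in the sources used here. Over all lists, the highest p-value listed was 0.0087 and the lowest fold 1.53. Depth is unknown, and fold and p-value were not used as levels of methylation between breeds.

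Starts counted from 0 in the files and are printed after adding 1. Exonic blocks of all lists were merged per strand where they overlapped by at least 1 bp, which gave the exonic regions. Exon numbers run along the chromosome on the minus strand and were reversed, and untranslated-region classes were used on the plus strand alone. Positions are midpoints of a peak's whole span as a percent of gene length, introns included. The lowest-p peak of a gene could lie at different sites in different lists. All 57 members matched a RefSeq name on Sscrofa11.1, and no gene of that table overlapped a member's peak on a placed chromosome. SNRPN could not be checked for overlap.

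Breeds were compared by exact two-sided permutation tests over the 20 splits of the 6 lists, with Benjamini-Hochberg adjustment over 3 comparisons. The counting was tested on simulated lists. Genes were named where listed in 3 lists of one breed and none of the other, or in 2 more lists of one breed, or, within a role group, for the highest lowest fold over the 6 lists or the most peaks, or as a muscle-related member, or as listed once; the remaining members were given briefly, and some members are counted but not reported by name here. Alternatives were a limit to stronger peaks, equal list length, a coverage minimum, leaving out names of other function, each list in turn, and a replicate block. The members and lists were chosen with earlier results of these data known. Python 3.11.15, pandas 2.3.3, NumPy 2.4.6 and SciPy 1.17.1 were used.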

Additional observations from a re-analysis of the deposited data

How the results depend on the processing

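When only the 50% of peaks with the lowest p-values were kept, 0 members and 0 exonic regions were confined to Large White and 0 regions to Ningxiang, and 34 regions were in all 6 lists, against 1, 7, 3 and 56. Of the 24 members in all 6 lists 17 kept this. Counting a region only where at least 50% of it was covered left 33 in all 6 lists, 6 Large White-only (CSTF1 and CSTF3 of the 5 genes kept) and 2 Ningxiang-only. Leaving out each list in turn gave 1 to 2 Large White-only members, 0 to 2 Ningxiang-only members, 9 to 15 Large White-only regions, 3 to 8 Ningxiang-only regions, 24 to 27 members and 58 to 69 regions in all lists left. EIF4A3 was among the Large White-only members each time, joined by DDX39B without Large White replicate 2, HNRNPH3 without Large White replicate 3, SNRPD2 without Ningxiang replicate 1 and RPL37 without Ningxiang replicate 3. HNRNPAB and RBM4B were Ningxiang-only without Large White replicate 3. Fewer lists make these rules easier to meet. The difference in member peaks ran from 5.17 to 15.7, in member genes from 3.5 to 7 and in share from 0.0362 to 0.310 percentage points. With every list limited to 2034 peaks, they were 6.33, 3.33 and 0.311 and EIF4A3 remained Large White-only. Without member names of other function they were 12, 5.33 and 0.231. With a replicate block (exact sign-flip permutation, smallest p 0.25) p was 0.25, 0.25 and 0.5; same-numbered lists correlated at 0.0222, 0.0133 and -0.0359 in their deviations, so the numbers did not pair the lists. No difference changed direction. Depth cannot be read from these lists and limits which peaks were listed.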
